A study of Mus musculus with 23 samples.

Results

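Complement genes were followed in the lungs of mice with and without the cystic fibrosis (CF) genotype in 2 inbred strains. The set comprised 8 genes of complement components, regulators and receptors that lung cells make: C1qa, C1qb, C1qc, C3, C4b, Cfb, Serping1 and C3ar1. A gene was followed where the platform annotation gave a probe set its symbol and no other. This held for 6 of the 8 genes, with 10 probe sets, among 18193 genes measured in the same way. C3 and C4b had no probe set of a single symbol and were not analysed here.

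RNA of the whole right lung was hybridised to 23 arrays. They came from C57BL/6 (B6) and BALB/c (BALB) mice of the genotypes CF-/- (CF) and CF+/+ (control), in females and males. There were 3 arrays per strain, sex and genotype, and 2 for B6 CF males. The labels used here name neither the targeted allele nor the age of the mice. They do not say that the arrays of 1 group were from different mice, so p-values measure the spread between these arrays, which may be technical. All levels below are log2 signals, and precision was limited by how few arrays a group had.

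Complement is a cascade of plasma and tissue proteins that marks microbes and dying cells for uptake. C1q, built from the products of C1qa, C1qb and C1qc, recognises bound antibody and starts the classical pathway, and in tissues its main source is macrophages and related myeloid cells. Factor B, the product of Cfb, supplies the protease of the alternative pathway, and Cfb is induced by interferons and other inflammatory signals. Serping1 encodes the C1 inhibitor, which stops the C1 proteases. C3ar1 encodes the receptor for the C3a fragment, found on myeloid cells.

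The arrays carried lung RNA: the mean of 6 alveolar type 2 cell markers lay between 11.6 and 11.9 on every array, and that of 3 club cell markers between 12.7 and 13.1. Markers of other tissues stood out on 9 arrays, where the mean of a skeletal muscle, squamous epithelium or intestine list was over 6. These were B6 control female 1 (intestine), B6 control male 3 (muscle and squamous epithelium), 4 of the 6 BALB control arrays (intestine) and all 3 BALB CF female arrays (muscle and squamous epithelium, with intestine on 1). Their part in the results was not tested. For the 6 complement genes, values with these arrays left out or with the 3 scores as covariates are given where they change a call. All other genes and lists below were not refitted in these ways, so how far their calls depend on these arrays is not known. Cftr, the targeted gene, read 5.40 to 5.85 in BALB controls and 3.49 to 4.42 in BALB CF lungs. In B6 its ranges overlapped, 4.04 to 4.58 in controls and 3.86 to 4.31 in CF lungs, so Cftr checked the labelled genotype of the BALB arrays but not that of the B6 arrays.

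The 3 C1q genes lie side by side on chromosome 4, in the order C1qb, C1qc, C1qa in the RefSeq gene order. An upstream window was available for 4 of the 8 genes: C1qb, C1qc, C3ar1 and C3. C1qa, C4b, Cfb and Serping1 had none, and C3, which was not analysed, is not shown. Shown are the 250 bases upstream of the start of C1qb and C1qc (RefSeq, GRCm38.p6, minus strand, printed 5′ to 3′). These neighbours moved together within groups on the arrays. The same stretch of C3ar1 is shown because its signal was higher in CF lungs of both strains. Capitals mark matches, on either strand, to an ETS factor core (GAGGAA, the kind of site that the myeloid factor PU.1 binds) or a kappa B pattern (GGG and CC with any 5 bases between), joined where they overlap.
C1qb, chr4:136886201-136886450: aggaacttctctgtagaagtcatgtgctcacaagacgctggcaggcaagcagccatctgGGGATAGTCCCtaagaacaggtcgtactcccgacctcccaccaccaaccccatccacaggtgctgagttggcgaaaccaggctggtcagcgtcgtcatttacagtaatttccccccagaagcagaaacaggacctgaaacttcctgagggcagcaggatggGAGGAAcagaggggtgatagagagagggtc
C1qc, chr4:136892915-136893164: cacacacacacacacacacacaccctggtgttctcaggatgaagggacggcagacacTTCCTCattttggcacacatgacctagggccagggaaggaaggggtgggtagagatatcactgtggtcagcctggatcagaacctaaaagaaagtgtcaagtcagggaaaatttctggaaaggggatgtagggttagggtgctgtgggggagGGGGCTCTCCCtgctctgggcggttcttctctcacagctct
C3ar1, chr6:122856158-122856407: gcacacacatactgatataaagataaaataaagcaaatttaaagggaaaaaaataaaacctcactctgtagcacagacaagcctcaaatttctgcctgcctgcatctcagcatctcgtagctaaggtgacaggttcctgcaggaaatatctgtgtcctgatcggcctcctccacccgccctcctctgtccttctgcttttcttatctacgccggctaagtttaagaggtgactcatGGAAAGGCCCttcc

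The ETS core was in the windows of C1qb (bases 30 to 25 before the start) and C1qc (bases 193 to 188), and not in that of C3ar1. Of all 32851 promoter windows of this length, 23.3% held it. The kappa B pattern was in all 3 windows and in 45.8% of all windows. The interferon-related patterns, TTC and GAA with any 3 bases between and GAAA and GAAA with any 2 between, which 7.02% and 2.98% of all windows held, were in none of the 3. The TATA pattern TATAAA (12.4% of all windows) was in that of C3ar1, 235 to 230 bases before the start, and the CCAAT pattern (33.8%) was in none. These are matches of letters only.

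**Figure D1:**
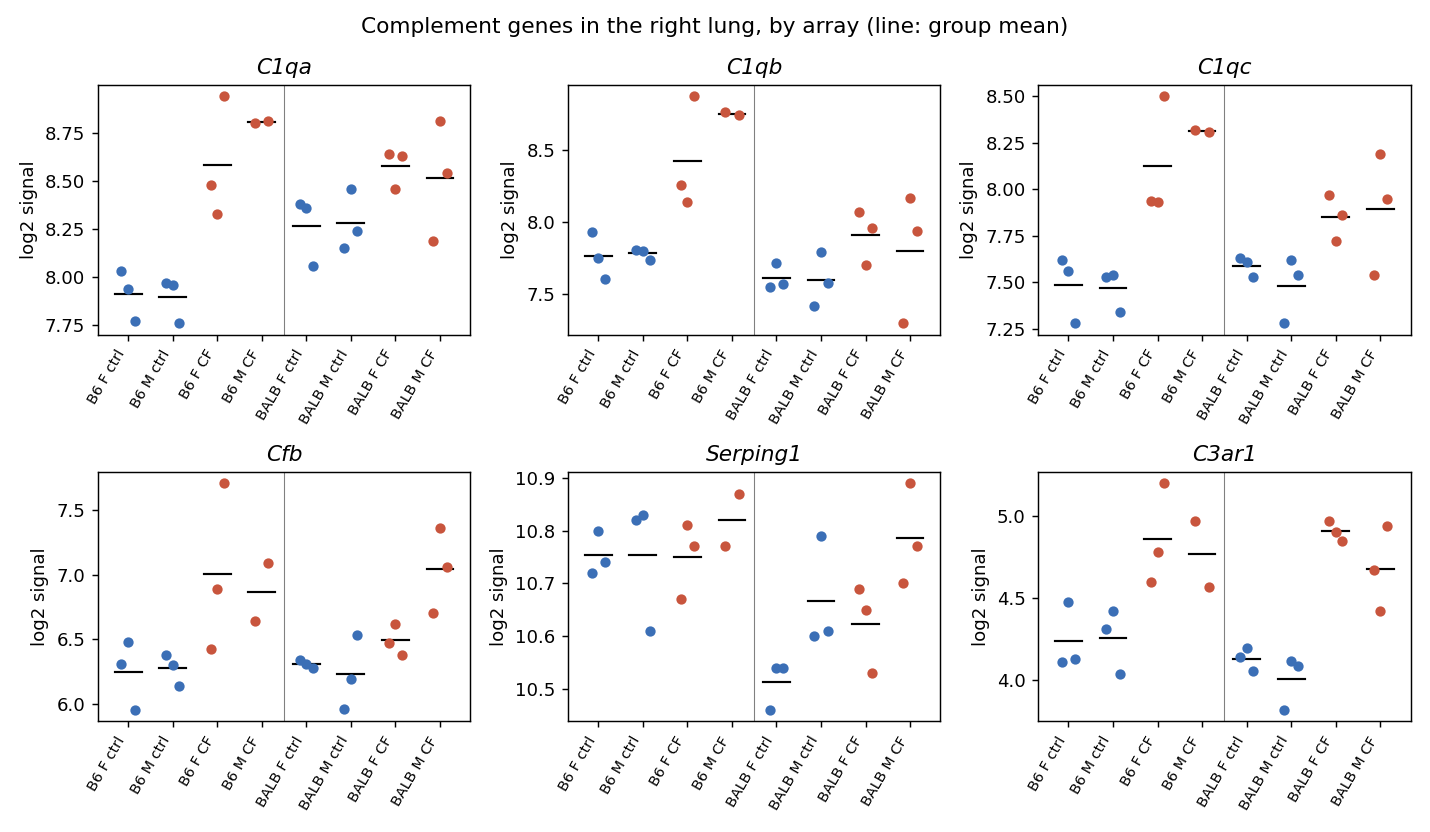
Log2 signal of each complement gene on every array (points) by strain, sex (F, M) and genotype (blue, control; red, CF), with the group mean as a line; each panel has its own axis. In B6 every CF array lies above every control array for C1qa, C1qb, C1qc and C3ar1, and in BALB this holds for C3ar1.

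In B6 lungs the CF genotype went with higher C1q expression. C1qa, C1qb and C1qc were 1.73-, 1.76- and 1.67-fold higher in CF lungs, and Cfb and C3ar1 1.6- and 1.48-fold higher. Serping1 did not differ beyond the spread. In all, 5 of the 6 genes rose at an adjusted p of 0.05, and 0 fell, where 3.92% of all genes rose and 1.5% fell. By probe set 8 of 10 rose, where 2.72% of all probe sets did. Groups did not overlap for 4 of the 6 genes, against 1.81% of all genes with every B6 CF array above every control array.

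C1qa read 8.48, 8.33 and 8.94 in B6 CF females and 8.80 and 8.81 in B6 CF males. The 6 B6 control arrays read 7.76 to 8.03, with a median of 7.95. Every CF array was thus above every control array, and CF female 3 was the highest of all. The difference was 0.79 (SE 0.11, n = 5 and 6, adjusted p = 0.000253). C1qb read 8.26, 8.14 and 8.87 in CF females and 8.76 and 8.74 in CF males, against 7.61 to 7.93 in controls (median 7.77). Its difference was 0.81 (SE 0.14, adjusted p = 0.00118). C1qc read 7.94, 7.93 and 8.50 in CF females and 8.32 and 8.31 in CF males, against 7.28 to 7.62 in controls (median 7.54), a difference of 0.74 (SE 0.11, adjusted p = 0.000569). In all 3 genes CF female 3 and both CF males formed the upper end and CF females 1 and 2 the lower end of the CF group. Taken by sex, C1qa rose in females by 0.67 (adjusted p = 0.0343) and in males by 0.91 (adjusted p = 0.00218). C1qb and C1qc rose in males (0.97, adjusted p = 0.00589, and 0.85, adjusted p = 0.00417), while in females their differences of 0.66 and 0.63 did not pass (adjusted p = 0.0961 and 0.0506). Of all genes 0.594% rose in B6 females and 5.13% in B6 males. The female minus male difference of the C1qa effect did not pass (-0.24, SE 0.22, adjusted p = 0.718).

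The other C1qb probe sets gave the same direction in B6. Probe set 1437726_x_at was higher by 0.66 (SE 0.13, adjusted p = 0.0042) and 1434366_x_at by 0.53 (SE 0.12, adjusted p = 0.0129). Names ending in _x_at mark probe sets that can also bind other transcripts.

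Cfb, on chromosome 17 beside C2, read 6.42, 6.89 and 7.71 in B6 CF females and 6.64 and 7.09 in CF males. Controls read 5.95 to 6.48 (median 6.31). CF female 1 lay within the control range and CF female 3 well above all others. The difference was 0.68 (SE 0.17, adjusted p = 0.0261). It did not pass without CF female 3 (0.50, adjusted p = 0.0507), CF male 2 (0.56, adjusted p = 0.113), control female 3 (0.60, adjusted p = 0.0723) or control male 3 (0.64, adjusted p = 0.0594). Nor did it pass with the arrays of other tissues left out (0.66, adjusted p = 0.098), with their scores as covariates (0.62, adjusted p = 0.108), or in a fit of B6 arrays alone (adjusted p = 0.0587).

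C3ar1 was measured by 3 dim probe sets, with means of 4.47, 4.44 and 4.16 over all arrays, each below the median of all probe sets (4.59). By the brightest it read 4.60, 4.78 and 5.20 in B6 CF females and 4.97 and 4.57 in CF males, against 4.04 to 4.48 in controls (median 4.22). The groups did not overlap, with a narrow gap. The difference was 0.57 (SE 0.12, adjusted p = 0.00561). It did not pass without CF male 1 (0.47, adjusted p = 0.0681) or without the arrays of other tissues (0.48, adjusted p = 0.0575). Probe set 1419482_at gave 0.54 (SE 0.08, adjusted p = 0.000427), and the dimmest, 1442082_at, 0.35 (SE 0.11, adjusted p = 0.0856).

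Serping1 read 10.67 to 10.87 on B6 CF arrays and 10.61 to 10.83 on controls (medians 10.77 and 10.77). The difference was 0.03, with a 95% interval of -0.09 to 0.16 (adjusted p = 0.858).

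In BALB lungs C3ar1 was the single gene of the 6 to pass: it was 1.64-fold higher in CF lungs. Of all genes 2.87% rose and 2.66% fell in BALB. C1qa, C1qb, C1qc and Cfb had higher means in CF lungs but did not pass, and the groups overlapped. C3ar1 was also the 1 gene of the 6 whose BALB groups did not overlap, against 1.22% of all genes with every BALB CF array above every control array.

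C3ar1 read 4.97, 4.90 and 4.85 in BALB CF females and 4.67, 4.42 and 4.94 in CF males. In control females it read 4.14, 4.20 and 4.06, and in control males 3.82, 4.12 and 4.09. The lowest CF array, male 2, lay above the highest control array, female 2. The difference was 0.72 (SE 0.11, n = 6 and 6, adjusted p = 0.000554), with 0.77 in females (adjusted p = 0.0221) and 0.67 in males (adjusted p = 0.0242), where 0.824% and 1.38% of all genes rose. The other probe sets gave 0.66 (SE 0.08, adjusted p = 3.73e-05) and 0.49 (SE 0.11, adjusted p = 0.00927), so that 3 of the 10 probe sets rose, where 2.6% of all probe sets did. With the scores of other tissues as covariates the difference was 0.81 (SE 0.16, adjusted p = 0.0607). The BALB minus B6 difference of the C3ar1 effect did not pass (0.15, 95% interval -0.18 to 0.48, adjusted p = 0.723).

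The C1q genes of BALB were more spread among CF arrays than among controls (C1qb SD 0.31 and 0.13). C1qa read 8.64, 8.46 and 8.63 in CF females and 8.19, 8.81 and 8.54 in CF males, against 8.06 to 8.46 in controls (median 8.30). Its difference was 0.27 (SE 0.11, adjusted p = 0.162). C1qb read 8.07, 7.70 and 7.96 in CF females and 7.30, 8.17 and 7.94 in CF males, against 7.42 to 7.79 in controls (median 7.57), for a difference of 0.25 (SE 0.13, adjusted p = 0.312). C1qc read 7.97, 7.72 and 7.86 in CF females and 7.54, 8.19 and 7.95 in CF males, against 7.28 to 7.63 (median 7.57), for a difference of 0.34 (SE 0.11, adjusted p = 0.0728). CF male 1 was the lowest and CF male 2 the highest CF array in all 3 genes. Without CF male 1, C1qc passed (0.43, adjusted p = 0.0187). It also passed without the B6 array CF female 3 (0.34, adjusted p = 0.0377), which enters through the shared spread, and after quantile normalization (adjusted p = 0.0464) or with array weights (adjusted p = 0.0301).

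For C1qb the probe sets differed in BALB. The brightest gave the 0.25 above, whereas 1437726_x_at gave -0.03 (SE 0.12, adjusted p = 0.942) and 1434366_x_at -0.00205 (SE 0.11, adjusted p = 0.995).

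Cfb read 6.47, 6.62 and 6.38 in BALB CF females and 6.70, 7.36 and 7.06 in CF males, against 5.96 to 6.53 in controls (median 6.30). All 3 CF males were above every control array, and CF females 1 and 3 lay within the control range. The difference was 0.49 (SE 0.16, adjusted p = 0.0845), with 0.81 in males (adjusted p = 0.0746) and 0.18 in females (adjusted p = 0.771). The sex difference of -0.63 did not pass (SE 0.32, adjusted p = 0.555). Cfb passed in BALB with array weights (0.54, adjusted p = 0.0366), in a fit of BALB arrays alone (adjusted p = 0.03), and without B6 CF female 1 (adjusted p = 0.0438) or 3 (adjusted p = 0.0234). Serping1 read 10.53 to 10.89 on CF arrays and 10.46 to 10.79 on controls (medians 10.69 and 10.57), a difference of 0.11 (SE 0.06, adjusted p = 0.303).

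**Figure D2:**
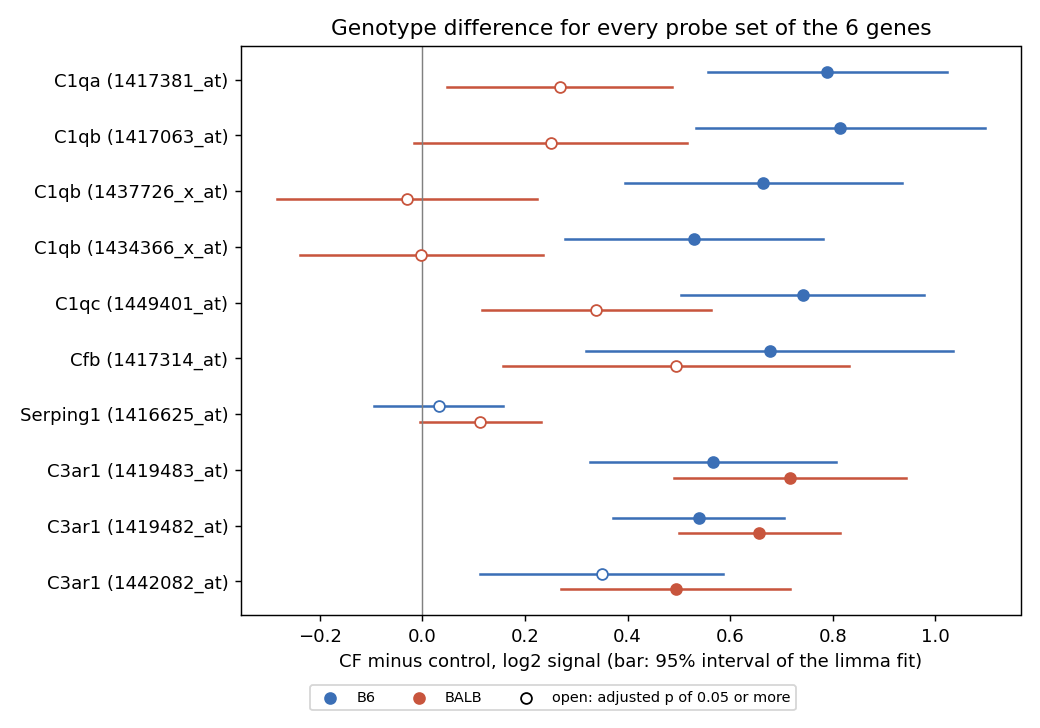
CF minus control difference of log2 signal for all 10 probe sets of the 6 genes in B6 (blue) and BALB (red), with the 95% interval of the fit; filled points have an adjusted p under 0.05. The B6 differences of the C1q probe sets run from 0.53 to 0.81 and the BALB differences from -0.03 to 0.34, while C3ar1 is higher in both strains by each probe set.

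The CF effect on C1q was smaller in BALB than in B6 by every C1q probe set, but the strain difference did not pass when each gene was taken by its brightest probe set. It was -0.52 for C1qa (SE 0.15, 95% interval -0.84 to -0.20, adjusted p = 0.0762), -0.56 for C1qb (SE 0.19, adjusted p = 0.117) and -0.40 for C1qc (SE 0.16, adjusted p = 0.194). Of the other C1qb probe sets, 1437726_x_at passed (-0.69, SE 0.18, adjusted p = 0.0398, where 1.2% of all probe sets were lower) and 1434366_x_at did not (-0.53, adjusted p = 0.0938). C1qa passed without B6 CF female 2 (-0.58, adjusted p = 0.0463) or BALB CF male 2 (-0.59, adjusted p = 0.0355). For Cfb the strain difference was -0.18 (SE 0.24, adjusted p = 0.786) and for Serping1 0.08 (SE 0.08, adjusted p = 0.714). Among all genes 0.72% had a CF effect higher in BALB and 1.51% lower, and of the 6 complement genes 0 had either (limma). At an unadjusted p under 0.05 there were 3: p was 0.00278 for C1qa, 0.00642 for C1qb and 0.0177 for C1qc. The share of all genes at that unadjusted threshold is not given. These 3 genes correlated within groups at 0.919 to 0.949, so they are not 3 separate observations.

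Between the control lungs of the strains, C1qa was higher in BALB, by 0.37 (SE 0.11, n = 6 and 6, adjusted p = 0.018), and the other 5 genes did not pass. The lowest BALB control array (8.06) was just above the highest B6 control array (8.03). Among all genes 8.64% were higher and 9.58% lower in BALB controls. The call was lost without B6 control female 3 (0.34, adjusted p = 0.0528), B6 control male 3 (0.34, adjusted p = 0.0509) or BALB control male 2 (0.33, adjusted p = 0.0558). It was also lost with the arrays of other tissues left out (0.39, adjusted p = 0.171) and with their scores as covariates (0.17, adjusted p = 0.898). C1qb and C1qc differed by -0.17 (adjusted p = 0.452) and 0.05 (adjusted p = 0.812), and Serping1 by -0.16 (SE 0.06, adjusted p = 0.0575), which passed under 6 other settings of the processing (adjusted p = 0.0228 to 0.0485). Among CF lungs C1qb was lower in BALB by 0.73 (-0.73, SE 0.14, adjusted p = 0.000434) and C1qc by 0.35 (-0.35, SE 0.11, adjusted p = 0.0359), where 12.1% of all genes were lower and 7.57% higher. Between control females and males 0 of the 6 genes passed (limma), and 0 had an unadjusted p under 0.05 by the brightest probe set, where 2.51% of all genes were higher in females and 0.912% lower. The other C3ar1 probe sets read higher in females, by 0.20 (1419482_at, unadjusted p = 0.0147, adjusted p = 0.177 in limma) and 0.28 (1442082_at, unadjusted p = 0.0166, adjusted p = 0.187 in limma), and did not pass.

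Within groups the C1q genes moved as a unit. After each group's mean was subtracted, C1qa and C1qb correlated at 0.919 over the 23 arrays, C1qa and C1qc at 0.942, and C1qb and C1qc at 0.949. Cfb correlated with them at 0.658 to 0.785, Serping1 at 0.422 to 0.503, and C3ar1 at 0.32 to 0.432. These are descriptions: all values of an array share its RNA and its scaling.

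The 5 genes most like the mean of the C1q genes by the same measure, among 11631 genes at or above the median signal, were Adgre1 (r = 0.89), Bst1 (0.879), Serpina3n (0.84), Cd14 (0.826) and Lap3 (0.821). Adgre1 encodes the macrophage surface receptor used to stain these cells, and Cd14 a lipopolysaccharide co-receptor of monocytes and macrophages. Serpina3n encodes an acute phase protease inhibitor, Bst1 a surface ADP-ribosyl cyclase and Lap3 an aminopeptidase. Without subtraction of group means r was 0.789 for Adgre1 and 0.114 for Bst1. In B6, Adgre1 (0.41, SE 0.10, adjusted p = 0.022) and Serpina3n (0.49, SE 0.12, adjusted p = 0.0222) rose, and the other 3 did not pass (adjusted p = 0.0627 to 0.329). In BALB the adjusted p of the 5 ran from 0.0865 to 0.702 in the limma fit.

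Markers of several immune cell types rose beside C1q, where 3.92% of all genes rose in B6 and 2.87% in BALB. Of 9 measured T cell markers 8 rose in B6 (median 0.83) and 5 in BALB (median 0.46). Of 8 neutrophil markers 4 rose in B6 (median 0.81) and 5 in BALB (median 1.04). By sex, 8 T cell markers rose in B6 males, 1 in B6 females, 1 in BALB males and 3 in BALB females. Neutrophil markers that rose numbered 2 in males and 4 in females of each strain. Of all genes 5.13% rose in B6 males, 0.594% in B6 females, 1.38% in BALB males and 0.824% in BALB females. Among controls 4 of the 8 neutrophil markers were lower in females (median -0.75), where 0.912% of all genes were. The mean level of the T cell list was 4.79 to 5.38 in B6 controls and 5.73 to 6.21 in B6 CF lungs, without overlap, and 4.81 to 5.82 and 5.41 to 6.07 in BALB. That of the neutrophil list was 5.99 to 7.96 and 7.55 to 8.35 in B6, and 6.12 to 6.94 and 7.12 to 8.16 in BALB, without overlap in BALB. Macrophages are described further because they are a main source of C1q. Of 14 measured macrophage markers 8 rose and 0 fell in B6 (median 0.43), among them the fractalkine receptor Cx3cr1 (0.85, SE 0.16, adjusted p = 0.00325), Aif1 (0.67, SE 0.14, adjusted p = 0.00846), Ms4a7 (0.62, SE 0.15, adjusted p = 0.0194) and the growth factor receptor Csf1r (0.31, SE 0.06, adjusted p = 0.00521). In BALB 4 of the 14 rose (median 0.35): Cx3cr1 (0.67), Fcer1g (0.52), Tyrobp (0.58) and Aif1 (0.48). Over all genes the median difference was 0.00799 in B6 and -0.00563 in BALB. By sex, 5 of the 14 macrophage markers rose in B6 males (median 0.53) and 0 in B6 females (median 0.28, limma, 5 at an unadjusted p under 0.05). In BALB 2 rose in females (median 0.31) and 0 in males (median 0.27, limma, 6 at an unadjusted p under 0.05). The mean level of the list was 7.81 to 7.98 in B6 controls and 8.04 to 8.47 in B6 CF lungs, and 7.45 to 7.72 and 7.69 to 8.04 in BALB. CF arrays were above control arrays in B6, and in BALB the lowest CF array, male 1, reached into the control range. That array was also the lowest BALB CF array for C1q. The markers Lyz2 (-0.09, adjusted p = 0.425), Mertk (0.06, adjusted p = 0.849) and Apoe (0.11, adjusted p = 0.561) did not pass in B6.

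Of 9 alveolar macrophage markers 1 rose in B6 (Marco, a scavenger receptor, 0.83, SE 0.19, adjusted p = 0.0148) and 0 in BALB (limma), where 1 had an unadjusted p under 0.05. Of all genes 3.92% rose in B6, and 2.87% rose and 2.66% fell in BALB. Their mean level was 6.98 to 7.38 in B6 controls and 7.22 to 7.84 in B6 CF lungs, and 6.06 to 6.45 and 6.25 to 6.59 in BALB. Of 4 measured monocyte markers 2 rose in B6 (list median 0.62) and 1 rose and 1 fell in BALB (list median 0.13). By sex, 2 rose in B6 males (median 1.23) and 0 in B6 females (median 0.06, limma, 1 at an unadjusted p under 0.05). In BALB 1 rose in each sex and 1 fell in males (medians 0.23 in males and 0.09 in females). Of all genes 5.13% rose in B6 males, 0.594% in B6 females, 1.38% in BALB males and 0.824% in BALB females. The share that fell in BALB males is not given. The B6 list median of the female minus male difference was -1.23, where the median over all genes was -0.000379. Ccr2 was higher in BALB by 1.24 (SE 0.15, adjusted p = 5.2e-05) and did not pass in B6 (0.47, adjusted p = 0.0892). Nr4a1 fell in BALB (-0.92, SE 0.21, adjusted p = 0.0131) and rose in B6 (1.23, SE 0.22, adjusted p = 0.00246). In whole lung, more cells of a type and more RNA per cell cannot be told apart, and the part of macrophage, T cell and neutrophil markers in the C1q difference was not tested.

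**Figure D3:**
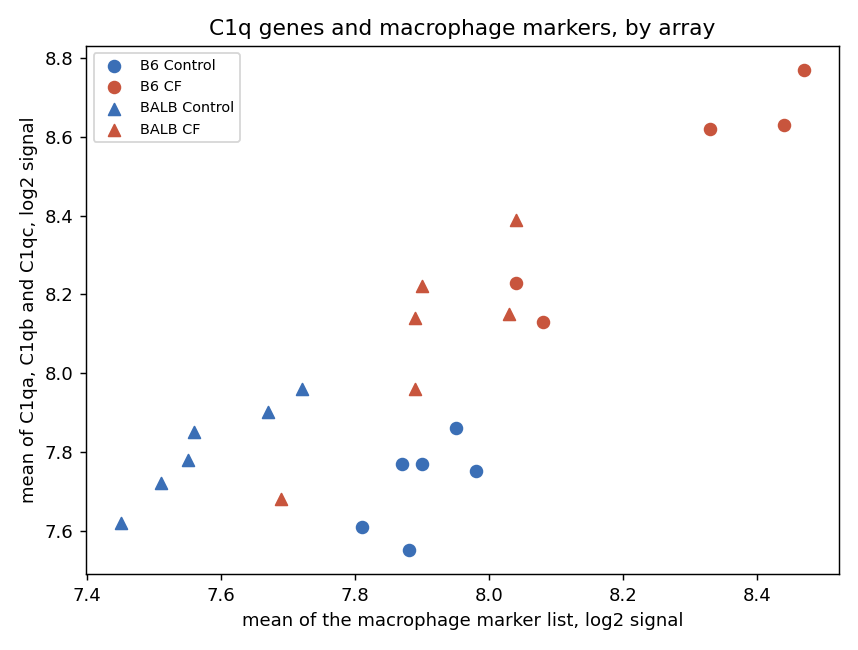
Mean log2 signal of C1qa, C1qb and C1qc against that of 14 macrophage markers, 1 point per array (circles, B6; triangles, BALB; blue, control; red, CF). B6 CF arrays reach 8.77 for C1q and 8.47 for the markers, and BALB control arrays lie lower on the marker axis than B6 control arrays with a similar C1q mean.

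Over the 23 arrays the C1q mean and the macrophage list mean correlated at 0.823, and at 0.898 after group means were subtracted. The macrophage list holds Adgre1 and Cd14, which were named above as most like C1q. Besides the interferon-induced list, no other list was correlated with the C1q mean, so T cell and neutrophil markers cannot be compared here. Interferon-induced genes, of which 16 of 24 rose in B6 (median 0.74) and 13 in BALB (median 0.47), correlated with the C1q mean at 0.774, and at 0.671 after group means were subtracted. Of all genes 3.92% rose in B6 and 2.87% in BALB. Taken by sex, 17 of the 24 rose in B6 males (median 1.23) and 1 in B6 females (median 0.25), where 5.13% and 0.594% of all genes rose. In BALB 15 rose in males (median 0.85) and 0 in females (median 0.13, limma, 4 at an unadjusted p under 0.05), where 1.38% and 0.824% of all genes rose. The difference between the sexes passed for 6 of the 24 in B6, with the larger effect in males, and for 0 in BALB (limma, 18 at an unadjusted p under 0.05). The share of all genes that passed is not given for these comparisons. The list median of the female minus male difference was -1.01 in B6 and -0.79 in BALB, where the median over all genes was -0.000379 and 0.00379. Their mean level on B6 CF arrays was 6.74 to 7.22 in females and 7.58 to 7.80 in males. The C1q mean on the same arrays was 8.13 to 8.77 in females and 8.62 to 8.63 in males. CF female 3 had the highest C1q mean, with an interferon-induced mean below that of both males, and CF females 1 and 2 were below the males in both means. Among BALB CF arrays male 1 was the lowest in both means (C1q 7.68, interferon-induced 6.62) and male 2 the highest (8.39 and 7.88). The order of the other BALB CF arrays differed between the means. The part of interferon-induced genes in the C1q difference was not tested.

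Of the rest of the complement system, 37 genes of a list of 45 were measured. In B6, 3 rose and 1 fell, with a median of 0.05. In BALB 4 rose and 0 fell, with a median of 0.02. Of all genes 3.92% rose and 1.5% fell in B6, and 2.87% rose and 2.66% fell in BALB. Most members of the list thus did not pass in either strain. The genes that rose in both strains were the subunits of complement receptor 3, an integrin of myeloid cells that binds deposited C3 fragments. Itgam rose by 0.54 in B6 (SE 0.14, adjusted p = 0.0259) and 0.76 in BALB (SE 0.13, adjusted p = 0.00137). Its probe set was dim, with a mean of 4.60 over all arrays, where the median of all probe sets was 4.59. In B6 its groups overlapped, at 4.22 to 4.68 in controls and 4.55 to 5.50 in CF lungs. In BALB they did not, at 3.73 to 4.48 and 4.50 to 5.32. Itgb2 rose by 0.55 (SE 0.11, adjusted p = 0.00506) and 0.54 (SE 0.10, adjusted p = 0.00348).

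Among the C1 proteases that C1q activates, C1ra rose in B6 (0.38, SE 0.10, adjusted p = 0.0257) and read 0.28 higher in BALB (adjusted p = 0.087). C1s1 rose in BALB (0.36, SE 0.09, adjusted p = 0.0231) and differed by -0.00419 in B6 (adjusted p = 0.991). It read 8.11 to 8.29 in B6 controls, 7.93 to 8.34 in B6 CF lungs, 7.42 to 7.76 in BALB controls and 7.73 to 8.29 in BALB CF lungs. BALB controls were the low group, lower than B6 controls by 0.52 (-0.52, SE 0.09, adjusted p = 0.000216). Cr2, the complement receptor of B cells and follicular dendritic cells, rose in BALB (0.58, SE 0.13, adjusted p = 0.0106) and differed by 0.09 in B6 (adjusted p = 0.816). The Cr2 probe set was dim, with a mean of 4.47 over all arrays, below the median of all probe sets (4.59). The strain difference of the CF effect passed for neither C1s1 (adjusted p = 0.156) nor Cr2 (adjusted p = 0.185). B cell markers moved beside it, with 5 of 6 rising in BALB (median 0.83) and 0 in B6 (median 0.34, limma, 2 at an unadjusted p under 0.05), and their part was not tested. Of all genes 2.87% rose in BALB. Within B6, 4 of the 6 rose in males (median 1.06) and 0 in females (median -0.30, 0 at an unadjusted p under 0.05). Of all genes 5.13% rose in B6 males and 0.594% in B6 females. The sex difference passed for 1, with a list median of -1.35, where the median over all genes was -0.000379. The share of all genes that passed is not given for it. The strain difference of the CF effect passed for 0 of the 6 (limma, 2 at an unadjusted p under 0.05). Their mean level was 4.84 to 6.15 in B6 controls, 5.28 to 6.28 in B6 CF lungs, 4.73 to 5.85 in BALB controls and 5.71 to 6.43 in BALB CF lungs.

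Hc, which encodes C5, the component that begins the terminal pathway, was the single gene of the list that fell. It read 10.76 to 11.10 in B6 controls and 10.02 to 10.53 in B6 CF lungs, without overlap, and fell by 0.71 (SE 0.07, adjusted p = 6.26e-06). In BALB it read 9.93 to 10.34 in controls and 9.85 to 10.10 in CF lungs, a difference of -0.15 (adjusted p = 0.206). Its CF effect differed between strains (0.57, SE 0.09, adjusted p = 0.00184), and BALB controls were below B6 controls by 0.83 (-0.83, SE 0.06, adjusted p = 1.62e-09). Besides Hc and C1s1, the lower genes of BALB controls with the lowest p were Clu, a terminal pathway inhibitor (-0.48, adjusted p = 2.85e-05), and Itgax, an integrin of dendritic cells and alveolar macrophages (-0.50, adjusted p = 0.00031). The lectin Mbl1 was higher (0.33, adjusted p = 0.00666). Its probe set was dim, with a mean of 4.22 over all arrays, below the median of all probe sets (4.59). The ranges overlapped, at 3.82 to 4.21 in B6 controls and 4.04 to 4.53 in BALB controls. In all 8 of the 37 were lower and 1 higher, where 9.58% of all genes were lower and 8.64% higher.

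Other genes with a role beside the members did not pass. C2, the classical pathway counterpart of Cfb and its neighbour, differed by -0.03 in B6 (adjusted p = 0.953) and by 0.08 in BALB. Cfp, which stabilises the alternative pathway convertase, differed by 0.11 (adjusted p = 0.518) and 0.12 (adjusted p = 0.427). C5ar1, the C5a receptor, differed by 0.26 (adjusted p = 0.339) and 0.43 (adjusted p = 0.0525). The 3 were named after their values were seen.

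**Figure D4:**
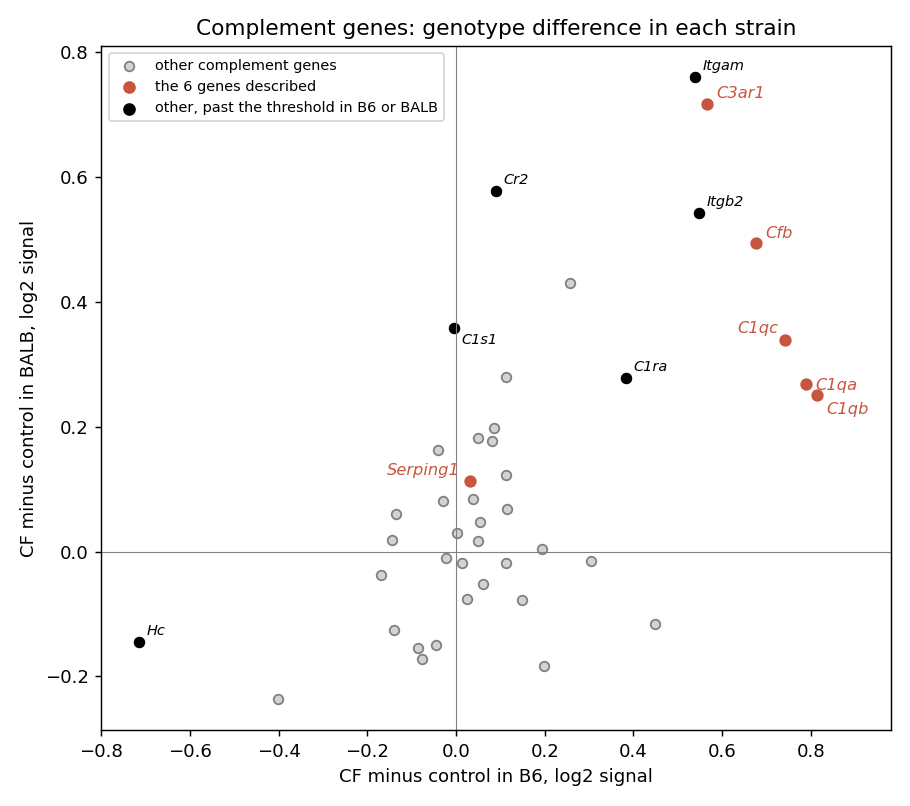
CF minus control difference of log2 signal in B6 (horizontal axis) and BALB (vertical axis) for the 6 complement genes (red) and 37 others of the pathway, with those past an adjusted p of 0.05 in either strain in black. The C1q genes lie far right at 0.74 to 0.81 in B6 with 0.25 to 0.34 in BALB, C3ar1 and Itgam lie high on both axes, and Hc lies far left.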

How the data were processed

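Values were those of the series' deposited table, 45101 probe sets by 23 arrays. The deposited values were read as log2 signals from their range (1.79 to 13.82). Array medians were 4.56 to 4.64 as deposited. What the authors did to summarise and normalize the log2 values before deposit is stated neither by the labels used here nor by the file headers. Columns were matched to groups by sample titles. Of 45037 probe sets left without 64 controls, 34945 had 1 symbol, 932 several and 9160 none.

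The 8 group means were fitted together over all probe sets with limma 3.58.1 in R 4.3.3, with Benjamini-Hochberg adjustment within each of 12 comparisons and a threshold of 0.05. A strain's CF effect is the mean of its effects in females and males. Since no group had over 3 arrays, all shared 1 estimate of spread. The fit was run on simulated data with independent noise and differences planted in B6 CF arrays. Those data held no signal of other tissues and no deviations shared by arrays or genes, so that run cannot speak to either. Each gene is given by its brightest probe set, and other probe sets of the 6 genes are named. Of the pathway list, up to 4 genes of lowest p per comparison and direction are named, and the 5 genes most like C1q by correlation within groups.

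Lists of complement genes, interferon-induced genes and 16 cell types or tissues were described by counts and medians. The members and lists were chosen with earlier results of these data known. Alternatives were quantile normalization, median centring, trended robust variance, array weights, a filter on dim probe sets, fewer arrays in the fit, other choices of probe set, a replicate block and leaving out each array. Leaving out arrays with other tissue, and scores of other tissues as covariates, were added after seeing the data.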

Additional observations from a re-analysis of the deposited data

Results flagged for a closer look

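In 2 of 24 sets of values (6 genes in 4 groups of strain and genotype) 1 array lay far from the others, and chance alone gives about 1 in 20. In both it was BALB control male 1, which read 7.28 for C1qc among 5 others at 7.53 to 7.63, and 3.82 for C3ar1 among others at 4.06 to 4.20. The C1qb probe set 1437726_x_at had a CF effect that differed between strains (-0.69, SE 0.18, adjusted p = 0.0398 in limma), while the brightest C1qb probe set did not pass (adjusted p = 0.117).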

How the results depend on the processing

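The number of the 6 genes past the threshold in B6 was 5. It was 4 to 5 when any 1 array was left out, and 3 with the arrays of other tissues left out (C1qa, C1qb and C1qc). In BALB the number was 1. It was 2 after quantile normalization, 3 with array weights, 2 in a fit of BALB arrays alone, 0 with scores of other tissues as covariates, and 1 to 3 when any 1 array was left out. For the strain difference of the CF effect it was 0, 1 by the probe set of lowest p, and 0 to 1 when any 1 array was left out. Between controls it was 1, and 2 after quantile normalization, with trended robust variance, with array weights and by the mean of a gene's probe sets, where Serping1 was added. It was 0 with arrays of other tissues left out or their scores as covariates, and 0 to 1 when any 1 array was left out.

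With the replicate number as a block the count between controls was 2, and the block changed no other call of the 6 genes. Deviations of arrays of the same number in different groups correlated over 0.1 in 17 of 77 pairs, with a median of 0.00209 and a highest value of 0.347. For pairs of other numbers it was 30 of 154, with a median of -0.00404 and a highest value of 0.281.

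Signs turned only where no setting passed. Serping1 in B6 was -0.012 without the arrays of other tissues and -0.022 with their scores as covariates, and -0.0038 to 0.057 when any 1 array was left out. Between controls C1qc was -0.18 and Cfb -0.11 with those covariates, and Cfb was -0.068 to 0.075 when any 1 array was left out. Causes were not tested. The filter on dim probe sets removed C3ar1, so its counts are not given. Leaving out the arrays of other tissues left no BALB CF females, so BALB and strain differences have no value there, and a fit of 1 strain gives no strain difference.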
